A study of Mus musculus with 18 samples.

Results

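The Wnt ligands, receptors, antagonists and nuclear effectors described here are 44 genes of the 52489 whose identifiers in the deposited count files matched the GENCODE M21 annotation. They were taken by symbol: 12 Wnt ligands, 9 Frizzled receptors, 5 co-receptors, 7 genes of the R-spondin axis, 5 secreted antagonists, and 6 nuclear or feedback genes. RNA came from sorted mammary epithelium of nulliparous mice 12 weeks old that received no treatment. Hormone-sensing luminal cells (HSL; CD49f low, CD61 negative), alveolar progenitors (AP; CD49f low, CD61 positive) and basal cells (CD49f high, CD61 positive) gave 6 libraries each, numbered 1 to 6 in each population. All groups carried the same MMTV-Cre transgene, in which a mouse mammary tumour virus promoter drives Cre recombinase in mammary epithelium. The study therefore compares populations of 1 genotype, and no group lacks the transgene. AP are also called luminal progenitors and HSL mature luminal cells. The p-values measure the spread between these libraries, since the labels do not say which animal each sample number stands for.

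Wnt proteins are secreted lipid-modified ligands that bind Frizzled receptors together with a co-receptor. With LRP5 or LRP6 this stabilises beta-catenin, which enters the nucleus and acts through TCF and LEF factors, while ROR and RYK receptors carry other branches of the pathway. R-spondins bound to LGR receptors remove the ubiquitin ligases RNF43 and ZNRF3, which otherwise clear Frizzled from the cell surface, and secreted antagonists capture the ligand or block its co-receptor. In the mammary gland the pathway is known for its part in branching and in the upkeep of basal stem cells.

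Summed over genes, a library held 26516293 to 52404937 counts in HSL, 37391691 to 62505465 counts in AP and 29899462 to 91095830 counts in basal cells. Levels below are CPM, counts scaled to library size and composition, given as the lowest, the median and the highest of 6 libraries. The sum of 12 basal markers was 58 to 226 CPM in HSL, 211 to 397 CPM in AP and 30761 to 54255 CPM in basal libraries. The sum of 11 HSL markers was 5511 to 8837 CPM in HSL, 640 to 2781 CPM in AP and 263 to 583 CPM in basal libraries, and that of 11 AP markers was 248 to 933 CPM in HSL, 4437 to 11733 CPM in AP and 1229 to 3208 CPM in basal libraries. Single markers followed their lists in part. All 12 basal markers were lower in HSL and in AP than in basal cells, 11 of 11 HSL markers were higher in HSL than in basal cells and 10 of 11 than in AP, and all 11 AP markers were lower in HSL than in AP. In AP, 9 of the 11 HSL markers were higher than in basal cells and none was lower. Relative to basal cells 7 of the 11 AP markers rose and 2 fell in AP. Those that fell were Itgb3, the gene of the sort antigen CD61, at 0.11 to 1.59 CPM in HSL, 16.7 to 75.3 CPM in AP and 79.6 to 119 CPM in basal libraries, and Tnfrsf11a, the receptor RANK. The libraries of sample 1 stood apart in each population. Their rank correlations with the other libraries of their population were 0.94 to 0.962 in HSL, 0.934 to 0.949 in AP and 0.945 to 0.96 in basal, where the other libraries gave 0.976 to 0.988, 0.969 to 0.985 and 0.975 to 0.985 among themselves. The sample 1 HSL library had the highest sums of AP markers (933 CPM, others 248 to 708) and basal markers (226 CPM, others 58 to 134) among HSL libraries. In each population the sample 1 library had the lowest sum of that population's own markers. These sums were 5511 CPM in HSL (others 8241 to 8837), 4437 CPM in AP (others 7681 to 11733) and 30761 CPM in basal cells (others 42925 to 54255). Its leukocyte sums were the highest in each population, at 152, 90.2 and 260 CPM in HSL, AP and basal cells. Markers of other cell types also differed between populations. The sum of 10 endothelial markers was 82.2 to 206 CPM in HSL, 44.8 to 100 CPM in AP and 83.9 to 279 CPM in basal libraries, with 1 higher and 9 lower in HSL and 10 lower in AP than in basal cells. The 1 higher in HSL was Vwf, von Willebrand factor, at 62.3 to 173 CPM in HSL, 20.5 to 50.3 CPM in AP and 22.5 to 94.7 CPM in basal libraries. The sum of 8 pericyte markers was 82.8 to 160 CPM in HSL, 123 to 222 CPM in AP and 138 to 252 CPM in basal libraries, with 1 higher and 7 lower in HSL and 1 higher and 6 lower in AP. The 1 higher in both was Notch3, a Notch receptor, at 74.5 to 143 CPM in HSL, 74.6 to 183 CPM in AP and 4.31 to 15 CPM in basal libraries, while Mcam, an adhesion protein, was at 0.947 to 8.48 CPM in HSL, 13.3 to 29.2 CPM in AP and 34.3 to 174 CPM in basal libraries. The sum of 5 erythroid markers was 9.36 to 32.4 CPM in HSL, 13.4 to 69.6 CPM in AP and 65.2 to 264 CPM in basal libraries, with 4 of 4 tested lower in HSL and in AP. The sum of 10 leukocyte markers was 1.74 to 152 CPM in HSL, 2.42 to 90.2 CPM in AP and 36 to 260 CPM in basal libraries, with 2 of 9 tested lower in HSL and 2 of 9 in AP. Adipocyte markers (5) summed to 10.5 to 57 CPM in HSL, 25.4 to 119 in AP and 93.4 to 300 in basal libraries. Relative to basal cells 1 of 2 tested was lower in HSL and 1 of 2 in AP. Schwann cell markers (6) summed to 111 to 125 CPM in HSL, 292 to 661 in AP and 192 to 268 in basal libraries. Of these, 1 was higher and 4 lower in HSL, and 2 were higher and 2 lower in AP. The staining for the sort included the lineage antigens CD31, CD45 and Ter119. The part of these cell types in the levels of the Wnt genes was not tested, nor was that of HSL cells in the AP libraries. Values without a sample are given where leaving it out changed a call or moved a called fold change by more than 1.5 times. These are bulk libraries, so fewer cells of a type and less RNA per cell cannot be told apart.

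Most of the 44 genes had their highest mean level in basal cells. Of the 44 genes, 39 passed the filter on low counts, and the highest population mean was in HSL for 8 of these (20.5%), in AP for 4 (10.3%) and in basal cells for 27 (69.2%). Over all 16471 genes tested the highest mean was in HSL for 35.6%, in AP for 24.9% and in basal cells for 39.5%. In AP against basal cells 4 of the 39 were higher (10.3%) and 22 lower (56.4%) at an adjusted p under 0.05, where 21.5% of all genes tested were higher and 23.1% lower. In HSL against basal cells 7 were higher (17.9%) and 28 lower (71.8%), where 27.8% of all genes were higher and 30.6% lower. In HSL against AP 7 were higher (17.9%) and 18 lower (46.2%), where 19.8% of all genes were higher and 20.1% lower; 49.6% of the calls over all genes were higher there, and 35.6% with scaling by total counts. Each pair of these comparisons shares the 6 libraries of a population, so they are not independent of each other. The quasi-likelihood test of edgeR was used, with Benjamini-Hochberg adjustment over all genes tested.

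The median log2 fold change of the 39 genes was -1.10 in AP against basal cells, -2.31 in HSL against basal cells and -0.76 in HSL against AP, where the medians of all genes tested were -0.001, -0.064 and -0.011. Libraries did not overlap for 3 higher and 18 lower genes in AP against basal cells, where 11.5 and 14.4% of all genes did so. The same held for 4 higher and 24 lower genes in HSL against basal cells (16.8 and 20.1% of all genes) and for 5 higher and 13 lower genes in HSL against AP (9.56 and 11% of all genes). Wnt2b, Lrp5, Lrp6 and Lef1 passed the threshold in none of the comparisons in this fit, 10.3% of the 39 genes, against 29.3% of all genes tested. The plots of levels by library and of fold changes show the 44 and the 39 genes.

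**Figure D1:**
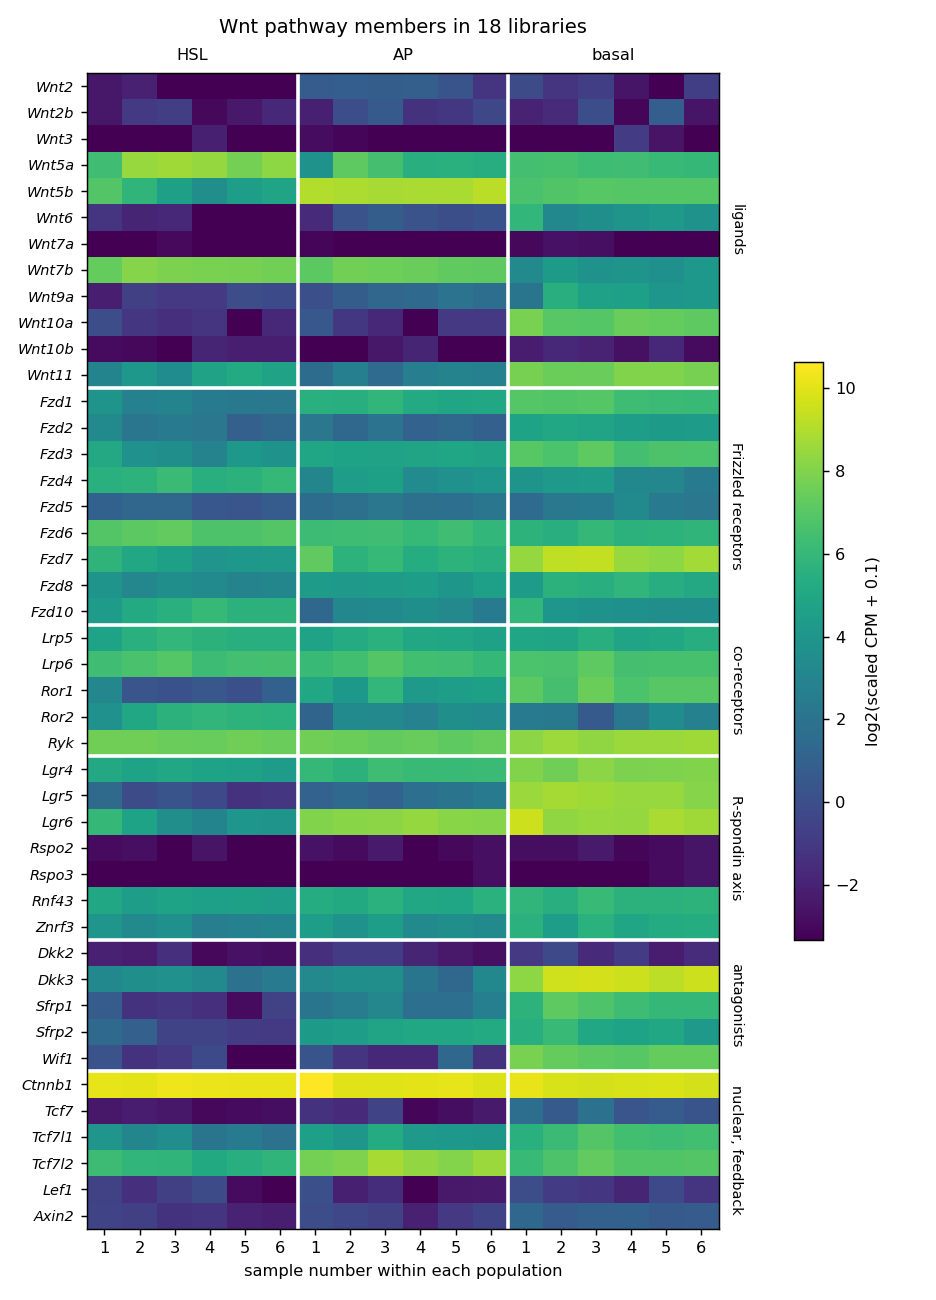
Levels of the 44 genes in 18 libraries, as log2 of scaled CPM plus 0.1, with HSL, AP and basal libraries from left to right, the sample number on the horizontal axis and the genes grouped by role. The bright basal block of Wnt10a, Wnt11, Fzd7, Lgr4, Lgr5, Dkk3 and Wif1 stands against Wnt7b and Fzd6, which were highest in HSL libraries, and Wnt5b and Tcf7l2, which were highest in AP libraries.

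**Figure D2:**
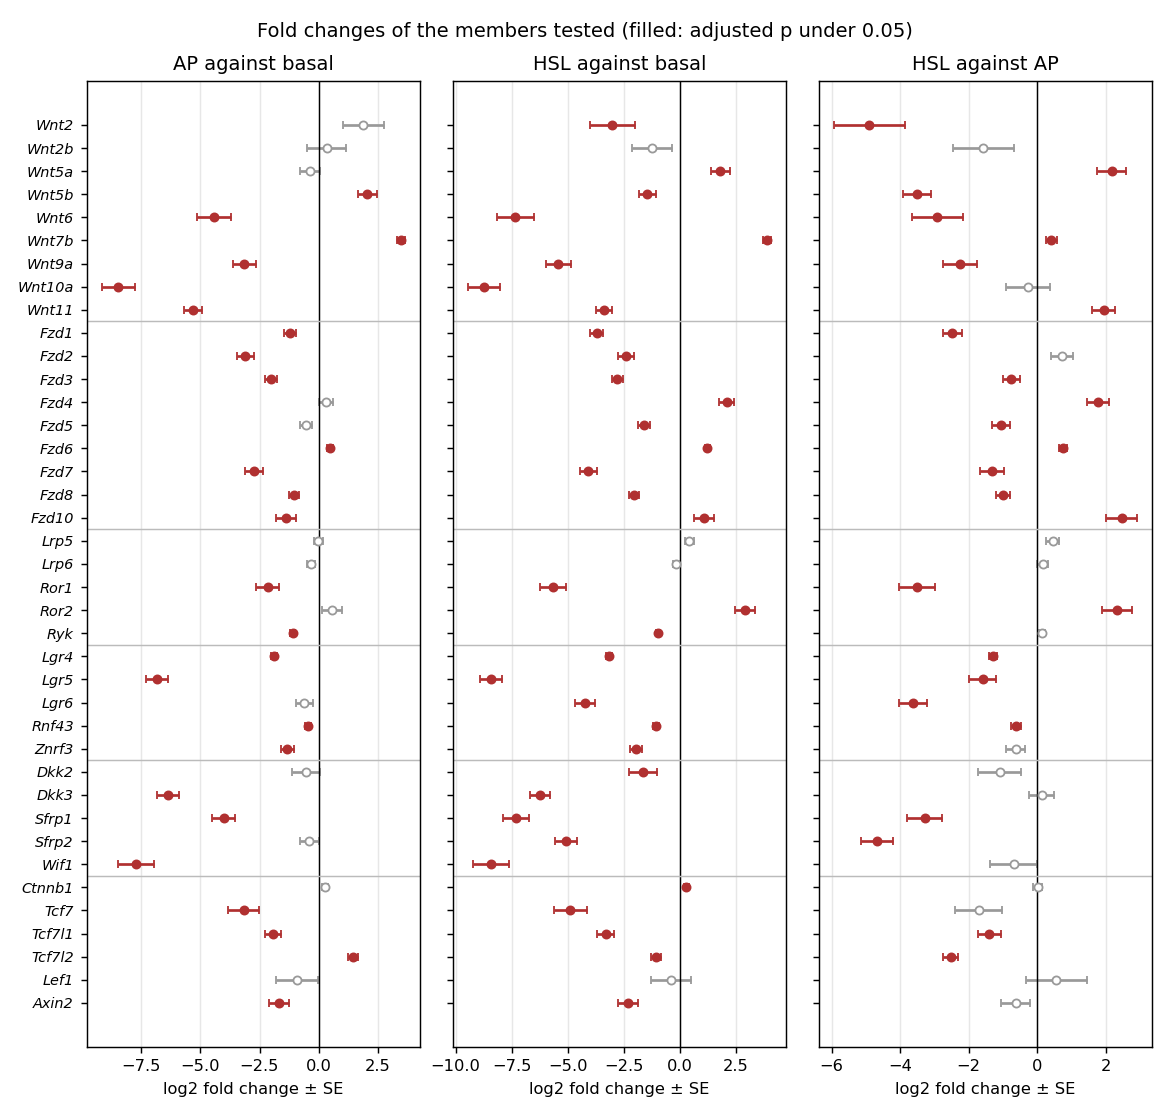
Log2 fold changes with their standard errors for the 39 genes tested, in AP against basal cells, HSL against basal cells and HSL against AP; filled points had an adjusted p under 0.05, and positive values mean higher in the first-named population. Filled points lie left of 0 for 22, 28 and 18 genes and right of 0 for 4, 7 and 7 genes.

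Promoter sequences were examined for the core motif of the TCF and LEF factors, CTTTGA, also read as TCAAAG on the opposite strand. A RefSeq window of 300 bases on GRCm38.p6 (250 before the start to 50 after it) existed for 29 of the 44 genes, with 39 windows in all. The motif was in 5 of these windows (12.8%), 1 each for Lef1, Ror1, Fzd1, Wnt5b and Wnt11. It was in 5257 of all 32851 windows (16%). The windows of Ror1, Fzd1 and Wnt11, whose transcripts were most abundant in basal cells, are shown because they give a view of such a promoter; the capitals mark the motif. They lie at chr4:100095541-100095840 on the plus strand, chr5:4758167-4758466 on the minus strand and chr7:98834862-98835161 on the plus strand, and a match of letters does not show that a factor binds.
Ror1: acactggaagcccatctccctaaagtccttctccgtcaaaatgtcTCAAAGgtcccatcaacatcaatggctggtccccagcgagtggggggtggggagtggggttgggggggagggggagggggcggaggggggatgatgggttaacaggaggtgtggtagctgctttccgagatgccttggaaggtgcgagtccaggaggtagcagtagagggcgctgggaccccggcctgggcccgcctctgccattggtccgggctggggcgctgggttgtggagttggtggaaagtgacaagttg
Fzd1: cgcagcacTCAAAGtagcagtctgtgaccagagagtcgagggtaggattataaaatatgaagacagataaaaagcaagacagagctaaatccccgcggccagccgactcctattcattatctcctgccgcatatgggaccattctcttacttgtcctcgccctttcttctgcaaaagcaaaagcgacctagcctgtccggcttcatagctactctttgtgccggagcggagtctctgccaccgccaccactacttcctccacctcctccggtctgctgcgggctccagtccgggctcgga
Wnt11: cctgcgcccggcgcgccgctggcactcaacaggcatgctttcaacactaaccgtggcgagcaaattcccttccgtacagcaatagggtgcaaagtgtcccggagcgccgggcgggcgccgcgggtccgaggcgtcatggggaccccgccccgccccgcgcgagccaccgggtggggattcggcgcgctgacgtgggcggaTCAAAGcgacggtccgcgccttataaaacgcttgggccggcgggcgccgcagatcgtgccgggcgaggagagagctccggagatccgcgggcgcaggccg
The motif starts 205 bases before the start in Ror1, 242 before it in Fzd1 and 50 before it in Wnt11.

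The ligands were divided among the populations. Of the 9 ligands tested, 2 rose and 6 fell in HSL relative to basal cells, 2 rose and 4 fell in AP relative to basal cells, and 3 rose and 4 fell in HSL relative to AP. The shares of all genes tested that rose and fell were 27.8 and 30.6%, 21.5 and 23.1%, and 19.8 and 20.1%, in that order. Wnt10a (chromosome 1, 74791516 to 74804179, plus strand, GRCm38), a ligand of the beta-catenin branch, was nearly restricted to basal libraries. Its levels were 0, 0.306 and 0.882 CPM in HSL, 0, 0.396 and 1.28 CPM in AP, and 123, 153 and 227 CPM in basal libraries. No HSL or AP library came near any basal library. The log2 fold change was -8.74 ± 0.71 (SE) in HSL against basal cells (adjusted p = 9.15e-09) and -8.48 ± 0.70 in AP against basal cells (adjusted p = 1.68e-08), and -0.27 ± 0.64 in HSL against AP (adjusted p = 0.772).

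Wnt11 (chromosome 7, 98835112 to 98855195, plus strand), whose promoter window is printed above, is best known as a ligand of the branch that does not use beta-catenin. It had 7.64, 22 and 36.4 CPM in HSL, 2.84, 6.37 and 7.37 CPM in AP, and 174, 222 and 254 CPM in basal libraries. The 3 populations did not overlap, with AP lowest and basal cells highest. Its log2 fold change was -3.38 ± 0.35 in HSL against basal cells (adjusted p = 1.79e-07), -5.31 ± 0.38 in AP against basal cells (adjusted p = 3.22e-09) and 1.94 ± 0.33 in HSL against AP (adjusted p = 0.00016). Wnt9a had 0.123, 0.464 and 0.878 CPM in HSL, 0.978, 2.48 and 3.82 CPM in AP, and 4.28, 20.2 and 43.7 CPM in basal libraries. The populations again did not overlap, in the order HSL, AP, basal from low to high. In log2 terms the fold change was -5.41 ± 0.56 in HSL against basal cells (adjusted p = 1.83e-07), -3.14 ± 0.49 in AP against basal cells (adjusted p = 4.21e-05) and -2.26 ± 0.50 in HSL against AP (adjusted p = 0.00146). Wnt6, which lies beside Wnt10a on chromosome 1, ranged from 0 to 0.353 CPM in HSL, 0.211 to 1.64 CPM in AP and 9 to 60 CPM in basal libraries, and was lower in HSL and in AP than in basal cells. The 60 CPM was in sample 1, and without that sample its log2 fold change was -3.56 in place of -4.42 in AP against basal cells, and -3.88 in place of -2.91 in HSL against AP. Wnt6 shares 18.3% of its span with another annotated gene.

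Wnt7b (chromosome 15, 85535437 to 85582473, minus strand) showed the reverse distribution. Levels were 163, 221 and 277 CPM in HSL, 139, 161 and 200 CPM in AP, and 9.63, 14.7 and 19.3 CPM in basal libraries. Each HSL and AP library was above each basal library, while HSL and AP libraries overlapped. As a log2 fold change this was 3.90 ± 0.18 in HSL against basal cells (adjusted p = 8.3e-12) and 3.49 ± 0.17 in AP against basal cells (adjusted p = 3.82e-11). HSL stood 0.41 ± 0.16 above AP on the log2 scale (adjusted p = 0.0469). That call held in a fit paired by sample number (adjusted p = 0.0021) and without sample 1 (adjusted p = 0.0148), and was lost when any 1 of samples 2 to 6 was left out (adjusted p = 0.0601 to 0.202). It was also lost with the test or the size factors of DESeq2, with scaling by total counts and with no filter on low counts. Within each sample number the HSL library was the higher in 6 of 6 pairs.

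Wnt5a and Wnt5b, close relatives that signal largely through ROR and RYK receptors, had their highest levels in different luminal populations. Wnt5b ranged from 11.8 to 118 CPM in HSL (median 26.4), from 457 to 580 CPM in AP (median 480) and from 99.5 to 127 CPM in basal libraries (median 123). AP libraries lay above all others, and the highest HSL library, that of sample 1, lay within the basal range. On the log2 scale, the fold change was -1.44 ± 0.38 in HSL against basal cells (adjusted p = 0.00333), 2.07 ± 0.39 in AP against basal cells (adjusted p = 0.000261) and -3.51 ± 0.41 in HSL against AP (adjusted p = 3.57e-06). Without sample 1 the fold changes of HSL were larger, -2.11 against basal cells and -4.12 against AP. Wnt5a ranged from 81.7 to 407 CPM in HSL (median 327), from 13.9 to 142 CPM in AP (median 45) and from 62 to 96.9 CPM in basal libraries (median 81.5). It was higher in HSL than in basal cells (log2 fold change 1.82 ± 0.43, adjusted p = 0.00131) and than in AP (2.17 ± 0.43, adjusted p = 0.000633), although the sample 1 HSL library lay within the range of both. AP against basal cells gave -0.35 ± 0.42 (adjusted p = 0.53). Wnt5a shares 14.6% of its span with another gene.

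Per kilobase of annotated exon, the median levels set the ligands of the 44 genes in order within a population. Wnt4, outside the 44 genes, is not in this order. Its HSL median was 346 CPM over 4194 bases of annotated exon, beside 221 CPM over 4898 bases for Wnt7b. In HSL libraries Wnt7b (45.2 CPM per kb) and Wnt5a (41.7) led, followed by Wnt5b (9.96). In AP libraries Wnt5b (181 CPM per kb) led, with Wnt7b next at 32.9. In basal libraries Wnt10a (62.1 CPM per kb), Wnt11 (53.7) and Wnt5b (46.3) led. Whether intronic reads were counted is not stated, so these levels per length are approximate. Low ligands included Wnt2, at 0 to 0.145 CPM in HSL, 0.332 to 1.8 CPM in AP and 0 to 0.829 CPM in basal libraries. It was lower in HSL than in AP (log2 fold change -4.90 ± 1.03, adjusted p = 0.000975) and than in basal cells (-3.01 ± 1.00, adjusted p = 0.0149), and AP against basal cells gave 1.89 ± 0.86 (adjusted p = 0.0814; in the paired fit 2.37, adjusted p = 0.0421). Without sample 2, which holds the highest HSL level, the fold changes of HSL were -5.69 and -3.89, and without sample 3 HSL against basal cells gave an adjusted p of 0.0584. Wnt2b ranged from 0.0189 to 1.67 CPM over all libraries. Wnt3, Wnt7a and Wnt10b failed the filter, and none was above 0.435 CPM in any library.

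**Figure D3:**
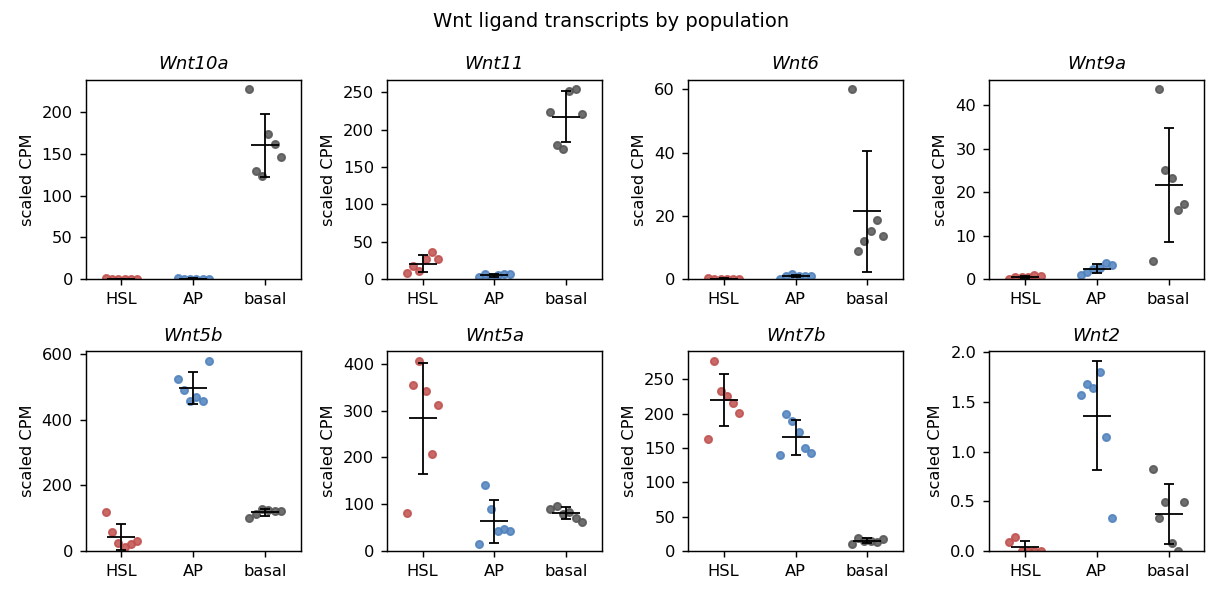
Levels of 8 Wnt ligands in scaled CPM, with 1 point per library in HSL, AP and basal cells and the mean and SD (n = 6) in black. Basal libraries are highest for Wnt10a, Wnt11, Wnt6 and Wnt9a, AP libraries for Wnt5b, and each HSL and AP library exceeds each basal library for Wnt7b.

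All 9 Frizzled genes of the set, which encode the Wnt receptors of the cell surface, passed the filter. Relative to basal cells 3 rose and 6 fell in HSL, and 1 rose and 6 fell in AP. Relative to AP 3 rose and 5 fell in HSL. Among all genes tested the shares that rose and fell were 27.8 and 30.6%, 21.5 and 23.1%, and 19.8 and 20.1%, in that order. Fzd7 (chromosome 1, 59482424 to 59486955, plus strand) was the most abundant of them per kilobase in basal libraries, with a median of 86.3 CPM per kb. Its levels were 15.5, 21.5 and 54.4 CPM in HSL, 39.9, 52 and 151 CPM in AP, and 303, 391 and 647 CPM in basal libraries. HSL and AP overlapped, and every basal library was above them. The fitted log2 fold change was -4.07 ± 0.40 in HSL against basal cells (adjusted p = 9.99e-08), -2.75 ± 0.38 in AP against basal cells (adjusted p = 9.11e-06) and -1.32 ± 0.36 in HSL against AP (adjusted p = 0.00709).

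Fzd1 (chromosome 5, 4753839 to 4758035, minus strand) and Fzd3 were graded, with AP between the other populations. Fzd1 had 4.73, 6.16 and 14.7 CPM in HSL, 29.7, 40.7 and 58.7 CPM in AP, and 69.1, 96 and 124 CPM in basal libraries. None of the 3 ranges overlapped. Tested across the populations, the log2 fold change was -3.70 ± 0.29 in HSL against basal cells (adjusted p = 5.93e-09), -1.22 ± 0.26 in AP against basal cells (adjusted p = 0.000964) and -2.48 ± 0.28 in HSL against AP (adjusted p = 2.06e-06). Fzd3, known from neuronal guidance, had 7.49, 13.6 and 34.1 CPM in HSL, 26, 27.9 and 31 CPM in AP, and 89.6, 106 and 145 CPM in basal libraries. The sample 1 HSL library lay above the AP range and the other HSL libraries below it. Fold changes were -2.78 ± 0.26 in HSL against basal cells (adjusted p = 6.15e-08), -2.02 ± 0.26 in AP against basal cells (adjusted p = 3.57e-06) and -0.76 ± 0.25 in HSL against AP (adjusted p = 0.0202); the last missed the threshold when any 1 of samples 2 to 6 was left out (adjusted p = 0.0528 to 0.073).

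Fzd6 (chromosome 15, 39006034 to 39038188, plus strand), which in mice is known for planar cell polarity, ran the other way. Its levels were 106, 121 and 154 CPM in HSL, 59.6, 76.3 and 82.7 CPM in AP, and 42.6, 52 and 61.8 CPM in basal libraries. HSL libraries lay above all others, and AP and basal libraries overlapped slightly. The log2 fold change was 1.24 ± 0.12 in HSL against basal cells (adjusted p = 5.71e-08), 0.48 ± 0.12 in AP against basal cells (adjusted p = 0.00214) and 0.75 ± 0.12 in HSL against AP (adjusted p = 5.45e-05). Fzd4 ranged from 42.6 to 72.1 CPM in HSL, 8.28 to 24.6 CPM in AP and 5.01 to 20.4 CPM in basal libraries, and was higher in HSL than in basal cells (2.09 ± 0.33, adjusted p = 2.3e-05) and than in AP (1.78 ± 0.32, adjusted p = 0.00027).

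Fzd10 ranged from 21 to 65.8 CPM in HSL, 2.51 to 12.3 CPM in AP and 11.8 to 60.5 CPM in basal libraries. The basal library of sample 1 held the 60.5 CPM, and the other basal libraries had 11.8 to 16 CPM. Its log2 fold change was 1.09 ± 0.43 in HSL against basal cells (adjusted p = 0.0383), -1.38 ± 0.44 in AP against basal cells (adjusted p = 0.0153) and 2.47 ± 0.45 in HSL against AP (adjusted p = 0.000297). Without sample 1 the first became 1.89 (adjusted p = 4.16e-07) and the second -0.52 (adjusted p = 0.0327). In the fit paired by sample number both missed the threshold (adjusted p = 0.0514 and 0.0566), and the first missed it when any 1 of samples 2 to 6 was left out (adjusted p = 0.0919 to 0.151), and with scaling by total counts. Fzd2 was at 1.82 to 9.7 CPM in HSL, 1.81 to 4.58 CPM in AP and 19.1 to 32.2 CPM in basal libraries. Fzd8 was at 7.44 to 15 CPM in HSL, 16.6 to 23.9 CPM in AP and 20.9 to 57.6 CPM in basal libraries, and Fzd5, which shares 21% of its span with another gene, stayed at or below 9.66 CPM. Fzd2 and Fzd8 were lower in HSL and in AP than in basal cells, and Fzd5 was lower in HSL than in AP and than in basal cells.

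The co-receptors fell into 2 kinds. Lrp5 and Lrp6, which carry the signal to beta-catenin, passed the threshold in none of the comparisons in the fit without pairing. Lrp5 ranged from 27.3 to 59.8 CPM in HSL, 25.4 to 47.8 CPM in AP and 28.3 to 43.1 CPM in basal libraries. Lrp6 ranged from 76.3 to 125 CPM in HSL, 63.5 to 119 CPM in AP and 92 to 147 CPM in basal libraries. All populations overlapped for both genes, with fold changes between -0.32 ± 0.16 (Lrp6, AP against basal cells) and 0.45 ± 0.19 (Lrp5, HSL against AP) on the log2 scale. In the paired fit, Lrp5 was higher in HSL than in basal cells (0.40, adjusted p = 0.0209) and than in AP (0.44, adjusted p = 0.0172), and Lrp6 was lower in AP than in basal cells (-0.33, adjusted p = 0.00484). Lrp5 also passed without sample 1 in HSL against basal cells (0.50, adjusted p = 0.019) and against AP (0.47, adjusted p = 0.0323), and Lrp6 passed without sample 3 in AP against basal cells (-0.29, adjusted p = 0.0387).

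Ror1 and Ror2, receptor tyrosine kinases that bind Wnt5a, were found at opposite ends. Ror1 (chromosome 4, 100095791 to 100444765, plus strand), the first of the promoters printed above, had 0.973, 1.23 and 8.63 CPM in HSL, 17.1, 23.5 and 59.9 CPM in AP, and 93.4, 129 and 182 CPM in basal libraries. The ranges did not overlap, and the highest HSL level was that of sample 1, with the others at 0.973 to 1.89 CPM. In log2 terms the fold change was -5.66 ± 0.58 in HSL against basal cells (adjusted p = 1.49e-07), -2.15 ± 0.49 in AP against basal cells (adjusted p = 0.00138) and -3.50 ± 0.52 in HSL against AP (adjusted p = 4.11e-05). Without sample 1 the fold changes of HSL were -6.67 and -4.52 against basal cells and AP. Ror2 (chromosome 13, 53109312 to 53286124, minus strand) had 13.1, 50 and 59.1 CPM in HSL, 2.17, 9.67 and 12.2 CPM in AP, and 1.45, 5.08 and 10.9 CPM in basal libraries. Every HSL library was above every AP and basal library, and AP and basal libraries overlapped. As a log2 fold change this was 2.91 ± 0.46 in HSL against basal cells (adjusted p = 2.52e-05), 0.58 ± 0.43 in AP against basal cells (adjusted p = 0.291) and 2.33 ± 0.45 in HSL against AP (adjusted p = 0.000438). The HSL libraries thus held little Ror1, more Ror2 and the highest median of Wnt5a.

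Ryk, an atypical kinase-like Wnt receptor, had 167, 185 and 198 CPM in HSL, 142, 166 and 194 CPM in AP, and 294, 372 and 401 CPM in basal libraries. HSL and AP overlapped and lay below all basal libraries. On the log2 scale, the fold change was -0.96 ± 0.10 in HSL against basal cells (adjusted p = 1.97e-07), -1.10 ± 0.10 in AP against basal cells (adjusted p = 6.16e-08) and 0.14 ± 0.10 in HSL against AP (adjusted p = 0.287).

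R-spondin receptors and the ligases they act on were most abundant in basal cells. Of the 5 genes of this axis that passed the filter, none was higher in the first-named population of any comparison, and 4 were lower in AP than in basal cells, 5 lower in HSL than in basal cells and 4 lower in HSL than in AP. Among all genes tested 23.1, 30.6 and 20.1% were lower, and 21.5, 27.8 and 19.8% higher, in that order. Lgr5 (chromosome 10, 115450311 to 115587780, minus strand), an R-spondin receptor and itself a Wnt target, had 0.314, 0.773 and 2.72 CPM in HSL, 1.98, 2.98 and 5.38 CPM in AP, and 279, 370 and 428 CPM in basal libraries. Basal libraries lay far above all others, and HSL overlapped AP only through sample 1. The fitted log2 fold change was -8.43 ± 0.49 in HSL against basal cells (adjusted p = 1.51e-10), -6.84 ± 0.45 in AP against basal cells (adjusted p = 1.19e-09) and -1.59 ± 0.39 in HSL against AP (adjusted p = 0.00306). Without sample 1 the values of HSL were -9.05 against basal cells and -2.32 against AP.

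Its relatives Lgr4 and Lgr6 were less restricted. Lgr4 had 21.1, 27.2 and 33.9 CPM in HSL, 49.5, 70.1 and 78 CPM in AP, and 197, 250 and 301 CPM in basal libraries. The 3 ranges were separate, in the order HSL, AP, basal from low to high. Tested across the populations, the log2 fold change was -3.17 ± 0.14 in HSL against basal cells (adjusted p = 8.11e-12), -1.88 ± 0.13 in AP against basal cells (adjusted p = 2.8e-09) and -1.29 ± 0.13 in HSL against AP (adjusted p = 9.34e-07). Lgr6 had 7.71, 15.5 and 62.1 CPM in HSL, 259, 287 and 342 CPM in AP, and 318, 378 and 760 CPM in basal libraries. Here AP overlapped basal cells, and HSL lay below both. The log2 fold change was -4.23 ± 0.43 in HSL against basal cells (adjusted p = 1.3e-07), -0.60 ± 0.37 in AP against basal cells (adjusted p = 0.207) and -3.63 ± 0.41 in HSL against AP (adjusted p = 2.6e-06); the last was -4.27 without sample 1. The sample 1 libraries held both the 62.1 CPM in HSL and the 760 CPM in basal cells. AP libraries thus had Lgr6 at a median of 41.8 CPM per kb beside Lgr4 at 11.9 and Lgr5 at 0.291, where basal libraries had 55.2, 42.4 and 36.1 CPM per kb of the same genes.

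The ligases changed less. Rnf43 had 22.1, 23.8 and 33.2 CPM in HSL, 30.6, 37.3 and 48.9 CPM in AP, and 42.8, 51.3 and 66.7 CPM in basal libraries. HSL and basal libraries were separate, and AP overlapped both. Its log2 fold change was -1.06 ± 0.14 in HSL against basal cells (adjusted p = 4.83e-06), -0.45 ± 0.14 in AP against basal cells (adjusted p = 0.0157) and -0.62 ± 0.14 in HSL against AP (adjusted p = 0.00224). The call in AP against basal cells was lost without sample 4 (adjusted p = 0.0584) or sample 5 (adjusted p = 0.0644), and with scaling by total counts. Znrf3 ranged from 6.25 to 15.4 CPM in HSL, 9.75 to 22.8 CPM in AP and 22.7 to 48.3 CPM in basal libraries, and was lower in HSL (-1.95 ± 0.28, adjusted p = 1.03e-05) and in AP (-1.32 ± 0.28, adjusted p = 0.00075) than in basal cells. HSL against AP gave -0.63 ± 0.27 (adjusted p = 0.0748), and in the paired fit -0.63 with an adjusted p of 0.00567, and without sample 1 -0.69 with an adjusted p of 0.0458. The ligands Rspo2 and Rspo3 failed the filter. Rspo2 was at most 0.105 CPM in any library, and Rspo3 was 0 in all HSL libraries, which allows up to 0.0529 to 0.123 CPM at their depths, counting error only.

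**Figure D4:**
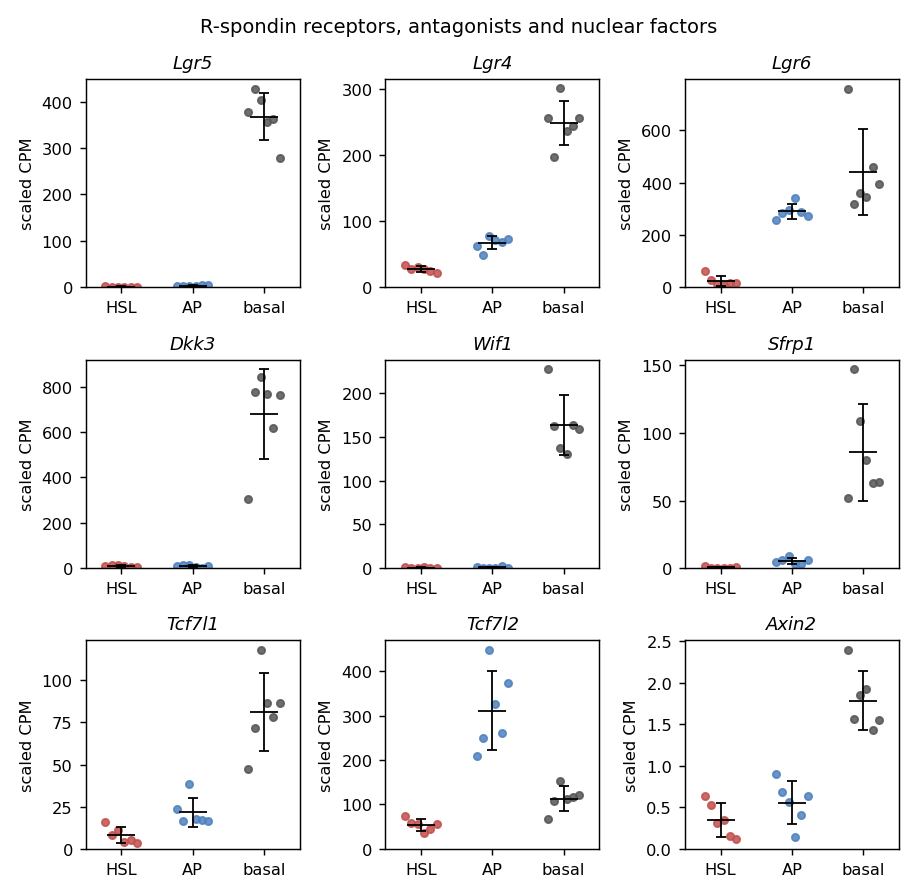
Levels of 3 R-spondin receptors, 3 secreted antagonists and 3 nuclear or feedback genes in scaled CPM, with 1 point per library in HSL, AP and basal cells and the mean and SD (n = 6) in black. Basal libraries are highest for Lgr5, Lgr4, Dkk3, Wif1, Sfrp1, Tcf7l1 and Axin2, Lgr6 is shared by AP and basal cells, and Tcf7l2 is highest in AP.

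Secreted antagonists were lower in the luminal populations as well. Of 5 tested, 3 were lower in AP and 5 in HSL than in basal cells, 2 were lower in HSL than in AP, and none was higher. Among all genes tested 23.1, 30.6 and 20.1% were lower, and 21.5, 27.8 and 19.8% higher, in that order. Dkk3 (chromosome 7, 112116017 to 112159057, minus strand) is a divergent member of the Dickkopf family. It was the most abundant of the 5 genes per kilobase in basal libraries, with a median of 228 CPM per kb. Whether Dkk3 opposes Wnt signals in these cells was not tested. It had 3.61, 9.66 and 13.1 CPM in HSL, 2.58, 9.3 and 12.4 CPM in AP, and 306, 765 and 842 CPM in basal libraries. HSL and AP had like ranges, far below basal cells, where sample 1 was lowest. In log2 terms the fold change was -6.24 ± 0.45 in HSL against basal cells (adjusted p = 2.2e-09), -6.36 ± 0.46 in AP against basal cells (adjusted p = 2.99e-09) and 0.13 ± 0.37 in HSL against AP (adjusted p = 0.811).

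Wif1, which binds Wnt proteins directly, had 0, 0.354 and 1.09 CPM in HSL, 0.189, 0.329 and 2.46 CPM in AP, and 130, 160 and 227 CPM in basal libraries. No HSL or AP library approached a basal library. As a log2 fold change this was -8.42 ± 0.80 in HSL against basal cells (adjusted p = 6.83e-08), -7.73 ± 0.77 in AP against basal cells (adjusted p = 2e-07; -8.53 without sample 5) and -0.69 ± 0.69 in HSL against AP (adjusted p = 0.459). Sfrp1, a secreted Frizzled-related protein, had 0.0314, 0.34 and 1.55 CPM in HSL, 3.28, 5.01 and 8.7 CPM in AP, and 51.6, 71.7 and 147 CPM in basal libraries. The 3 ranges were separate. On the log2 scale, the fold change was -7.30 ± 0.59 in HSL against basal cells (adjusted p = 7.62e-09), -4.02 ± 0.49 in AP against basal cells (adjusted p = 2.32e-06) and -3.28 ± 0.51 in HSL against AP (adjusted p = 5.64e-05); without sample 1 the values of HSL were -8.28 and -4.20. Dkk2 stayed at or below 0.733 CPM, and its lower level in HSL than in basal cells (-1.64 ± 0.63, adjusted p = 0.0324) missed the threshold without sample 1, 2 or 4 (adjusted p = 0.0603, 0.126 and 0.109) and with no filter on low counts, and was -2.25 without sample 3.

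Sfrp2, the second Frizzled-related protein, was shared by AP and basal cells. It had 0.412, 0.618 and 2.65 CPM in HSL, 19.4, 30 and 37.1 CPM in AP, and 18.4, 32.2 and 71.2 CPM in basal libraries. AP and basal libraries overlapped, and every HSL library lay below them. The fitted log2 fold change was -5.07 ± 0.48 in HSL against basal cells (adjusted p = 6.26e-08), -0.40 ± 0.40 in AP against basal cells (adjusted p = 0.441) and -4.67 ± 0.47 in HSL against AP (adjusted p = 8.32e-07; -5.26 without sample 1). Fibroblast markers were likewise low in HSL libraries: the sum of 12 was 44.9 to 115 CPM in HSL, 636 to 1620 CPM in AP and 754 to 1203 CPM in basal libraries. All 12 were lower in HSL than in AP and than in basal cells, and relative to basal cells 5 rose and 2 fell in AP. Col3a1 was at 12 to 51.4 CPM in HSL, 317 to 758 CPM in AP and 224 to 360 CPM in basal libraries, and none of the 12 was at 0 throughout a population. Wnt2 was also lower in HSL than in AP and in basal cells. The part of fibroblast RNA in the levels of Sfrp2 and Wnt2 was not tested.

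**Figure D5:**
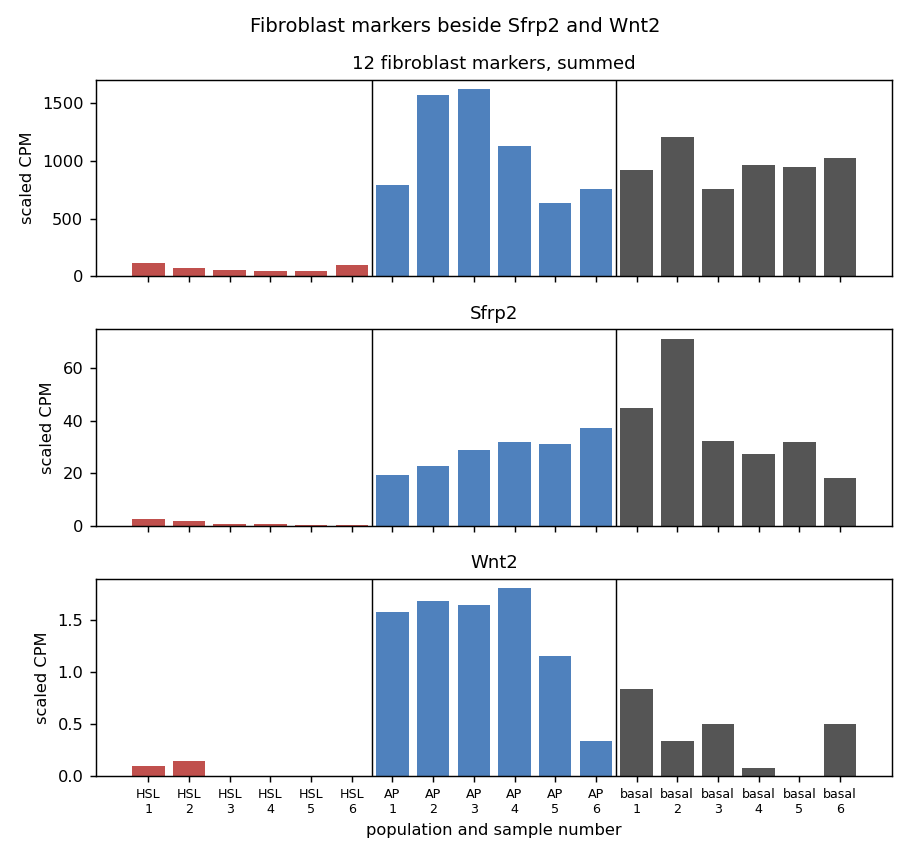
Summed level of 12 fibroblast markers and levels of Sfrp2 and Wnt2, in scaled CPM, for each library of HSL, AP and basal cells, labelled by sample number; bars start at 0. All 3 are low in HSL libraries, while the order of libraries within AP and within basal cells differs between the panels.

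Among the nuclear factors, the TCF genes were divided between populations. Of 6 nuclear and feedback genes tested, 1 rose and 4 fell in HSL relative to basal cells, 1 rose and 3 fell in AP relative to basal cells, and 2 fell in HSL relative to AP. The shares of all genes tested that rose and fell were 27.8 and 30.6%, 21.5 and 23.1%, and 19.8 and 20.1%, in that order. Tcf7l2 (chromosome 19, 55741820 to 55933654, plus strand) had 36.1, 55.6 and 74.9 CPM in HSL, 210, 294 and 449 CPM in AP, and 67.1, 114 and 154 CPM in basal libraries. AP lay above all other libraries, and HSL overlapped basal cells. Tested across the populations, the log2 fold change was -1.06 ± 0.21 in HSL against basal cells (adjusted p = 0.000308), 1.46 ± 0.21 in AP against basal cells (adjusted p = 1.87e-05) and -2.52 ± 0.22 in HSL against AP (adjusted p = 2.5e-07). Tcf7l1, a TCF factor known mainly as a repressor, had 3.66, 7 and 15.7 CPM in HSL, 16.4, 17.6 and 38.4 CPM in AP, and 47.2, 82.4 and 118 CPM in basal libraries. The 3 ranges did not overlap. The log2 fold change was -3.31 ± 0.36 in HSL against basal cells (adjusted p = 3.11e-07), -1.91 ± 0.34 in AP against basal cells (adjusted p = 0.000144) and -1.40 ± 0.33 in HSL against AP (adjusted p = 0.00264). Tcf7l1 shares 12.6% of its span with other annotated genes.

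Tcf7 was low, at 0.022 to 0.121 CPM in HSL, 0.0158 to 0.631 CPM in AP and 1.13 to 3.59 CPM in basal libraries. It was lower in HSL (-4.88 ± 0.73, adjusted p = 1.4e-05) and in AP (-3.17 ± 0.65, adjusted p = 0.000557) than in basal cells, and shares 78.7% of its span with other genes, so its level is uncertain. HSL against AP gave -1.71 ± 0.69 (adjusted p = 0.0573), and passed the threshold without sample 4 (-1.77, adjusted p = 0.0458), in the paired fit (-1.44, adjusted p = 0.0301), with the test of DESeq2 and with scaling by total counts. Lef1, the other factor of that kind, stayed at or below 0.978 CPM in every library. Ctnnb1, which encodes beta-catenin, had 1060 to 1232 CPM in HSL, 953 to 1594 CPM in AP and 852 to 1150 CPM in basal libraries, and its fold changes were small: 0.30 ± 0.13 in HSL against basal cells (adjusted p = 0.0454) and 0.28 ± 0.13 in AP against basal cells (adjusted p = 0.0785; in the paired fit 0.27, adjusted p = 0.0324, and without sample 1 0.23, adjusted p = 0.0173). The call in HSL was lost when any 1 of samples 2 to 6 was left out (adjusted p = 0.0938 to 0.15), with scaling by total counts and with no filter on low counts. Ctnnb1 shares 21.8% of its span with other genes.

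Axin2, a scaffold of the beta-catenin destruction complex and a common readout of the pathway, was 0.123, 0.331 and 0.635 CPM in HSL, 0.142, 0.603 and 0.901 CPM in AP, and 1.43, 1.71 and 2.4 CPM in basal libraries. Every basal library was above every HSL and AP library. Its log2 fold change was -2.31 ± 0.43 in HSL against basal cells (adjusted p = 0.000154), -1.68 ± 0.42 in AP against basal cells (adjusted p = 0.00297) and -0.63 ± 0.42 in HSL against AP (adjusted p = 0.246). Its level was low in all populations: per kilobase the basal median was 0.31 CPM per kb, against 36.1 for Lgr5.

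A list of 100 other gene symbols, by part of the pathway, was chosen with earlier results of these data known. Of these symbols 99 were in the files. The symbol not found, Tle5, is a newer name of Aes, which is among the 99. Of the 99, 84 were tested. In AP against basal cells 12 were higher (14.3%) and 27 lower (32.1%), where 21.5% of all genes tested were higher and 23.1% lower. In HSL against basal cells 18 were higher (21.4%) and 31 lower (36.9%), where 27.8 and 30.6% of all genes were. In HSL against AP 19 were higher (22.6%) and 23 lower (27.4%), where 19.8 and 20.1% of all genes were. The median log2 fold change of the 84 was -0.14, -0.11 and 0.01 in these comparisons, in that order. Wls, which carries Wnt proteins to the cell surface, had 176 to 366 CPM in HSL, 93.5 to 187 CPM in AP and 282 to 451 CPM in basal libraries, and was lower in AP than in basal cells (-1.38 ± 0.19, adjusted p = 7.62e-06). Porcn, the enzyme that attaches their lipid, had 32.2 to 91.1 CPM in HSL, 13.7 to 22.7 CPM in AP and 24.2 to 35.1 CPM in basal libraries. It was higher in HSL than in AP (1.57 ± 0.22, adjusted p = 2.21e-05).

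Of the pathway's feedback genes and targets 15 were tested, and relative to basal cells 4 rose (26.7%) and 9 fell (60%) in HSL, and 2 rose (13.3%) and 6 fell (40%) in AP, beside the shares of all genes just given. Nkd1, a feedback inhibitor, had 0.0823 to 2.2 CPM in HSL, 0.253 to 1.59 CPM in AP and 81.8 to 175 CPM in basal libraries. In log2 terms the fold change was -7.10 ± 0.56 in HSL (adjusted p = 6.59e-09) and -7.16 ± 0.56 in AP (adjusted p = 9.56e-09), each against basal cells. Procr, which in mice marks a subset of basal stem cells and responds to Wnt, was at 0.973 to 1.99 CPM in HSL, 1.07 to 3.67 CPM in AP and 7.63 to 13.9 CPM in basal libraries. Those that rose are named after their values were seen. Ccnd1, which encodes cyclin D1, was at 117 to 240 CPM in HSL, 201 to 653 CPM in AP and 12.1 to 105 CPM in basal libraries, the highest in each being sample 1. It was higher in HSL (2.18 ± 0.49, adjusted p = 0.000907; 2.86 without sample 1) and in AP (3.29 ± 0.51, adjusted p = 3.87e-05) than in basal cells. Trib2, a pseudokinase, was at 13.1 to 59.5 CPM in HSL, 63.2 to 86.6 CPM in AP and 4.03 to 23 CPM in basal libraries, and was higher in HSL (1.33 ± 0.37, adjusted p = 0.00481) and in AP (2.73 ± 0.39, adjusted p = 1.31e-05) than in basal cells. The transcription factors Prox1 (2.07 ± 0.31, adjusted p = 1.75e-05) and Tcf12 (0.61 ± 0.20, adjusted p = 0.014) rose in HSL. The call of Tcf12 was lost without sample 2 (adjusted p = 0.0769) or sample 4 (adjusted p = 0.0693). Of 17 planar polarity genes 1 rose (5.88%) and 11 fell (64.7%) in HSL, and 1 rose (5.88%) and 8 fell (47.1%) in AP, relative to basal cells. Prickle2 and the glypican Gpc4 were both lower in HSL (-2.66 ± 0.18 and -3.22 ± 0.22, adjusted p = 1.16e-09 and 9.25e-10) and in AP (-1.64 ± 0.18 and -1.69 ± 0.21, adjusted p = 5.24e-07 and 2.31e-06) than in basal cells. The destruction complex and factors around it, with Dvl, Frat, Tnks and Csnk1g genes among them, had 21 genes tested. Of these 7 rose (33.3%) and 2 fell (9.52%) in HSL, and 3 rose (14.3%) and 3 fell (14.3%) in AP, relative to basal cells. The shares of all genes tested that rose and fell were 27.8 and 30.6% in HSL and 21.5 and 23.1% in AP. They apply to the planar polarity genes as well.

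Wnt4, the ligand induced by progesterone in the luminal epithelium, was outside the 44 genes. Its levels were 265, 346 and 490 CPM in HSL, 38.8, 54.1 and 120 CPM in AP, and 8.22, 12.5 and 14.7 CPM in basal libraries, with a log2 fold change of 4.87 ± 0.27 in HSL against basal cells (adjusted p = 9.04e-11). Rspo1, an R-spondin, ranged from 0.22 to 75.2 CPM in HSL (median 1.52), 11 to 376 CPM in AP (median 24.4) and 1.91 to 12.2 CPM in basal libraries (median 3.49). The highest library of each population was that of sample 1, and the others were at 0.22 to 3.92 CPM in HSL, 11 to 43.6 CPM in AP and 1.91 to 3.96 CPM in basal cells. AP against basal cells gave 4.20 ± 1.29 (adjusted p = 0.0123), and 3.04 without sample 1 (adjusted p = 0.000168). HSL against AP gave an adjusted p of 0.0951, and without sample 1 -3.94 (adjusted p = 2.92e-05).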

How the data were processed

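RNA from cells sorted on CD49f, CD61, EpCAM and lineage antigens was turned into libraries from 2 ng of total RNA with a low-input kit and a kit that does not mark strand, per the labels' protocols. The authors deposited whole-number counts per gene, one file per library, with RPKM beside them, per the file headers; the RPKM values were not used. GRCm38 is the build in the submitters' processing notes; the aligner and the counter were not given in the sources used here. Among 52636 identifiers, 147 did not match GENCODE M21 and were left out (0.00303 to 0.00677% of counts). Counts were fitted with edgeR 4.0.16 in R 4.3.3: filterByExpr with a minimum count of 10 kept 16471 genes, scaled with TMM factors, and a quasi-likelihood model (robust, populations as groups, 18 libraries) was tested with the F test and Benjamini-Hochberg adjustment, at 0.05. Fold changes are first-named over second-named population. The test was run on simulated counts drawn independently for each library. Those counts had no effect of sample number, so that run does not cover deviations shared by a number. The alternatives were DESeq2 1.42.0, its size factors, total counts, no filter, each sample number left out, samples 1 to 3 and 4 to 6 alone, and the sample number as a block. Libraries of the same number deviated together (r from 0.127 to 0.63 over all 18 pairs of libraries, across genes), so the paired fit took the number as a block. The fit behind the calls, where no other is named, did not pair the samples. The labels give the numbers and not what they mark. The members, the lists and the alternatives were chosen with earlier results of these data known. Genes shown with lowest, median and highest level were up to 4 per role with the smallest adjusted p, at 10 CPM or more in 1 population and with separate libraries in 1 comparison; the ligand pair Wnt5a and Wnt5b, Axin2 and the genes given by range were added after their values were seen. Of the other pathway genes, up to 3 per part of the pathway with the smallest adjusted p could be named, with Wnt4 and Rspo1; the targets that rose and the single marker genes were named after their values were seen. Exonic lengths and spans came from GENCODE M21, promoters from RefSeq on GRCm38.p6. Tables and figures were made with Python 3.11.15, pandas 2.3.3 and matplotlib 3.10.9.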

Additional observations from a re-analysis of the deposited data

Results flagged for a closer look

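Of 95 groups of 6 libraries whose mean was at least 1 CPM, 16 had a highest library that lay far from the other 5, with a gap past Dixon's critical value for 6 samples. For independent groups of normally distributed values chance gives about 1 in 20, counting gaps at either end; these groups share 18 libraries and the values are not log-transformed, so the rate here is not known. The highest library was that of sample 1 in 12 of the 16. In sample 1 the ligand Wnt6 was at 60 CPM in basal cells, where the others had 9 to 18.7 CPM. Of the receptors, Fzd1 was at 14.7 CPM in HSL cells, where the others had 4.73 to 7.71 CPM, and Fzd3 was at 34.1 CPM in HSL cells, where the others had 7.49 to 17.4 CPM. Also in sample 1, Fzd7 was at 151 CPM in AP cells, where the others had 39.9 to 65.3 CPM, and Fzd10 was at 60.5 CPM in basal cells, where the others had 11.8 to 16 CPM. Among co-receptors and R-spondin receptors, Ror1 was at 8.63 CPM in HSL cells, where the others had 0.973 to 1.89 CPM, and Lgr5 was at 2.72 CPM in HSL cells, where the others had 0.314 to 1.15 CPM. The receptor Lgr6 was at 62.1 CPM in HSL cells, where the others had 7.71 to 27.6 CPM, and at 760 CPM in basal cells, where the others had 318 to 460 CPM. The antagonist Wif1 was at 227 CPM in basal cells, where the others had 130 to 164 CPM. Ctnnb1, the gene of beta-catenin, was at 1594 CPM in AP cells, where the others had 953 to 1103 CPM, and at 1150 CPM in basal cells, where the others had 852 to 923 CPM. The libraries of sample 1 also stood apart over all genes, and its HSL library had the highest sums of AP, basal and leukocyte markers among HSL libraries (933, 226 and 152 CPM). In each population the sample 1 library had the lowest sum of that population's own markers and the highest sum of leukocyte markers. Outside sample 1, Fzd5 in basal cells was at 9.66 CPM in sample 4, where the others had 2.85 to 5.17 CPM, and Lrp6 in basal cells was at 147 CPM in sample 3, where the others had 92 to 103 CPM. Likewise Ror1 in AP cells was at 59.9 CPM in sample 3, where the others had 17.1 to 31.8 CPM, and Tcf7l1 in AP cells was at 38.4 CPM in sample 3, where the others had 16.4 to 23.7 CPM. The report gives fold changes without these samples where they moved by more than 1.5 times.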

How the results depend on the processing

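Of 86 calls of the Wnt genes over the 3 comparisons (117 tests), 60 passed the threshold under every alternative that gave an adjusted p, 26 missed it under at least 1, and none changed direction. DESeq2 gave no adjusted p for Wnt5b in any comparison, and kept 82 of the other 83 calls. With samples 1 to 3 alone 25 calls missed it. That fit includes the libraries of sample 1 and has fewer samples, as has that of samples 4 to 6. In HSL against AP the calls lost were those of Wnt5a, Wnt6, Wnt7b, Wnt9a, Fzd3, Fzd5, Fzd7, Fzd8, Fzd10, Ror2, Lgr5, Rnf43 and Tcf7l1. In HSL against basal cells they were those of Wnt5a, Wnt5b, Fzd5, Fzd10, Dkk2, Ctnnb1 and Tcf7l2. In AP against basal cells they were those of Fzd8, Fzd10, Ror1, Rnf43 and Znrf3. With samples 1 to 3, 4 genes were higher in HSL than in basal cells (7 with all samples), and relative to AP 3 rose and 9 fell in HSL (7 and 18). Of the other pathway genes, 8 were higher in HSL than in basal cells, and relative to AP 2 rose and 11 fell in HSL. Over all genes this fit called 1491 in HSL against AP (6571 with all samples), 3718 in AP against basal cells (7356) and 5674 in HSL against basal cells (9621). With samples 4 to 6 alone 2 calls missed it, Wnt2 in HSL and Fzd10 in AP, each against basal cells. With 1 sample number left out at a time, 5 to 8 Wnt genes rose and 27 to 28 fell in HSL relative to basal cells, 4 to 5 rose and 21 to 23 fell in AP relative to basal cells, and 6 to 8 rose and 17 to 19 fell in HSL relative to AP. For the other pathway genes these ranges were 15 to 19 and 30 to 33, 12 to 14 and 24 to 29, and 14 to 21 and 20 to 26, in that order. With the sample number as a replicate block 84 of 86 calls held, and, beside those given in the report, Fzd2 in HSL against AP (0.64, adjusted p = 0.0287) passed. The replicate block without sample 1, chosen after seeing the data, kept all 86 and had 7 Wnt genes higher in AP than in basal cells in place of 4. Total counts in place of TMM factors moved the median log2 fold change of all genes to 0.136 in AP against basal cells, -0.100 in HSL against basal cells and -0.185 in HSL against AP, and 82 of the 86 calls held. The cause of these changes was not tested. The depth limits the low genes: Wnt3, Wnt7a, Wnt10b, Rspo2 and Rspo3 had too few counts for a test, and Lef1, Dkk2, Wnt2 and Wnt2b rest on few counts. Low luminal counts also underlie other fold changes, such as those of Tcf7 and Axin2. Tcf7 had 1 to 5 counts in HSL and 1 to 30 in AP libraries, and Axin2 had 3 to 36 and 9 to 47.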
